A study of Mus musculus with 67 samples.

Results

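Kinesins are motor proteins that use ATP to move along microtubules or to take microtubules apart. The kinesin genes were taken here as every gene whose symbol is Kif with a number and at most 1 letter from a to c, or Kifc with a number. The rule found 41 genes among the 39179 rows of the table. They were split, with earlier results of these data known, into 12 mitotic kinesins, 15 transport kinesins and 14 other kinesins. Their values were read in single cells of the vascular smooth muscle (VSMCs), the contractile layer of the vessel wall, cultured from the descending aorta of male C57Bl6 mice of 3 to 4 months. The comparison set 45 cells at passage 2 against 22 cells at passage 1. Both passages grew in medium with 10% fetal bovine serum and 1% antibiotic. The plates stood for 5 days before the passage 1 cells were trypsinized, and passage 2 was the culture replated from them. No cell carried a transgene or a treatment that the labels name, and each cell was captured on a microfluidic chip and became 1 library.

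Neither an animal nor a culture is labelled per cell, and a passage was therefore treated as a single sample. No test between the passages was possible, and each difference given is a description of these cells. Library names begin differently at passage 2 and at passage 1, so the passage and the set of libraries cannot be told apart. A cell held 548419 to 1509589 reads at passage 2 and 817021 to 1561129 reads at passage 1. The median cell had a read in 7257 genes at passage 2 and in 8477.5 genes at passage 1. A smooth muscle identity, taken as at least 3 of 10 markers at a value of 10, was met by 45 of 45 passage 2 cells and by 19 of 22 passage 1 cells, although Des, the muscle intermediate filament gene desmin, had no read in the passage 1 cells. The summed smooth muscle markers ranged from 1371 to 28496 in passage 2 cells, with a median of 7019, and between 173 and 8012 in passage 1 cells, with a median of 1508. Of the 10 markers, 9 passed the filter on low values described with the ratios, and all 9 were higher at passage 2, with a median log2 ratio of 2.22. Their part in the kinesin values was not tested. At least 3 of 10 endothelial markers reached 10 in 2 of 45 passage 2 cells and in 5 of 22 passage 1 cells. All of these also had at least 3 smooth muscle markers at 10, so the smooth muscle count does not separate the cell types. Passage 2 cell 8, for example, had 4 smooth muscle and 8 endothelial markers at 10, and passage 1 cell 13 had 3 and 9. Summed endothelial markers ranged from 0 to 7293 at passage 2, with a median of 5.06, against 1.27 to 6082 at passage 1, with a median of 9.64. The endothelial marker Cldn5 was at 0 in every cell. At least 3 of 10 fibroblast markers, several of which cultured VSMCs also express, reached 10 in 35 passage 2 cells and in 17 passage 1 cells. No cell of either passage reached 3 macrophage markers.

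Mitotic kinesins build the spindle, move chromosomes and divide the cell, and most of their transcripts peak late in the cell cycle, so they are found mainly in dividing cells. Transport kinesins carry vesicles, organelles and ciliary cargo, and cells use them whether or not they divide. VSMCs of an adult artery rarely divide, whereas VSMCs placed in serum re-enter the cycle. Promoters of many late cell cycle genes carry CCAAT boxes, the motif bound by NF-Y, close to a TTTGAA element, known as the cell cycle genes homology region. TTTGGCGC is one spelling of the E2F motif.

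The 100 bases before the RefSeq transcription start (GRCm38.p6) are shown for 5 mitotic kinesins that differ in which of these letters they hold, and for the transport kinesin Kif3a beside them. Each is written 5′ to 3′ on the gene's own strand. The GENCODE M21 gene models, whose coordinates are given with the values, begin inside the window for Kif15 and Kif22. Capitals mark the TTTGAA motif, the CCAAT motif or the TTTGGCGC motif, read on either strand.
Kif11, chr19:37376282-37376381, plus strand: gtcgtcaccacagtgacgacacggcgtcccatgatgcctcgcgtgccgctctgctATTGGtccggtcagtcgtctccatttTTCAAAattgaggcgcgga
Kif15, chr9:122950981-122951080, plus strand: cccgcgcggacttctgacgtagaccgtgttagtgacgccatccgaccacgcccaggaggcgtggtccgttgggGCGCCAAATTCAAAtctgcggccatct
Kif22, chr7:127042421-127042520, minus strand: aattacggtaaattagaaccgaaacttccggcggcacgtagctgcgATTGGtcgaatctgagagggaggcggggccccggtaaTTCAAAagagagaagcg
Kif18a, chr2:109280638-109280737, plus strand: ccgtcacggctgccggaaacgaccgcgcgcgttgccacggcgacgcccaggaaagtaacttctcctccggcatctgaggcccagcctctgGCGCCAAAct
Kif20b, chr19:34922258-34922357, plus strand: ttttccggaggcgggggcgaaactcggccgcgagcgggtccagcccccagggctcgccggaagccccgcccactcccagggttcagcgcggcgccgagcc
Kif3a, chr11:53567269-53567368, plus strand: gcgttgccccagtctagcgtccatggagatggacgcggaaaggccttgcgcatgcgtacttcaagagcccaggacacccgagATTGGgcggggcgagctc

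A promoter window was available for 32 of the 41 kinesins, 11 of them mitotic and 10 of them transport. Within the 100 bases, CCAAT was found in 7 of 11 mitotic windows (Kif4, Kif11, Kif14, Kif18b, Kif22, Kif23 and Kifc1), in 3 of 10 transport windows (Kif1b, Kif3a and Kif3b) and in 18.9% of all 32851 RefSeq windows. TTTGAA was found in 3 of 11 mitotic windows (Kif11, Kif15 and Kif22), in 1 of 10 transport windows (Kif1a) and in 5.77% of all windows. In Kif11 and Kif15 the TTTGAA match lay 19 bases before the start, and in Kif22 it lay 17 bases before it. TTTGGCGC stood in 2 of 11 mitotic windows (Kif15 and Kif18a), in 0 of 10 transport windows and in 0.186% of all windows, and in Kif15 it ran straight into the TTTGAA match. The motif TTCGAA and the motifs TTTCCCGC and GCGCGAAA, searched on both strands like the others, had no match in the mitotic or transport windows. Of the 11 other kinesins with a window, 4 held CCAAT (Kif2b, Kif6, Kif24 and Kif26b) and 2 held TTTGAA (Kif26b and Kif27). TTTGGCGC was found in 0 of them and TTCGAA in 1 (Kif24). A gene with a match in any of its windows counts once, whereas the shares of all windows are per window. A match describes letters in a sequence and no binding was measured.

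The mitotic kinesins were lower at passage 2 and the transport kinesins were close to level between the passages. Of the 41 kinesins, 7 had no read in any cell (Kif2b, Kif5a, Kif6, Kif9, Kif12, Kif27 and Kif28), 34 had at least 1 read, and 23 passed the filter on low values, a mean of 10 or more and reads in 25% or more of the cells of either passage. Those 23 comprised 10 mitotic, 11 transport and 2 other kinesins. Values are the authors' size-factor normalized counts, and the log2 ratio is log2(mean + 1) at passage 2 minus log2(mean + 1) at passage 1, which understates the difference of genes with low values. All 10 mitotic kinesins that passed were at least 2-fold lower at passage 2, where 19.4% of the 8682 genes that passed were that much lower and 54.7% were lower at all. Of the 10, Kif20a alone met the filter at passage 2. The others passed through passage 1 only, where they were higher, so the filter favours lower ratios among them. Among the mitotic kinesins with any read, 12 of 12 were lower at passage 2 and 11 were at least 2-fold lower, while of the 20000 genes with a read 49.7% were lower and 14% at least 2-fold lower. Over those 12 the median log2 ratio was -2.34. The median log2 ratio of the 10 was -2.85, a 7.21-fold lower value at passage 2, beside a median of -0.11 over the 8682 genes. Kif2a, which also acts at spindle poles, was listed with the other kinesins. At a log2 ratio of -0.55 it was not 2-fold lower, so the count of mitotic kinesins depends on this listing. Of the 11 transport kinesins that passed, 8 were higher at passage 2, as were 45.3% of the 8682 genes, and 3 were lower. One of them was at least 2-fold higher, where 14.4% of genes were, and 0 were at least 2-fold lower. Their median log2 ratio was 0.45. Those counts rest on means over cells. When log2 values were averaged over cells, 2 of the 11 were higher, 9 lower and 3 at least 2-fold lower, beside a median of -0.62 over all genes that passed. By medians over cells, 3 were higher, 5 lower and 3 at least 2-fold lower. The mitotic kinesins were lower in 10 of 10 by averaged log2 values and in 9 of 10 by medians, with Kif14 at 0 in both passages.

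**Figure D1:**
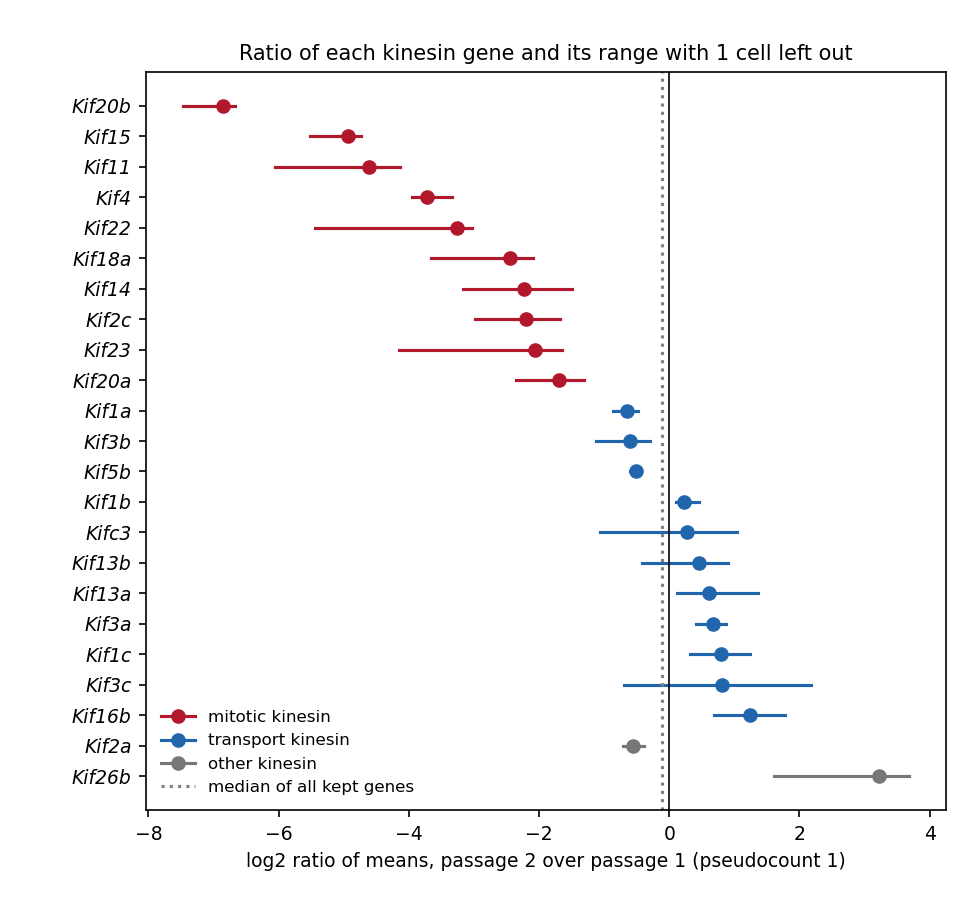
Log2 ratio of means, passage 2 over passage 1 with a pseudocount of 1 (x axis), for the 23 kinesins that passed the filter, ordered within each class (y axis). Points are all 67 cells, lines the range when each cell is left out in turn, and the dotted line is the median of the genes that passed, -0.11. The 10 mitotic kinesins lie between -6.85 and -1.70, and the 11 transport kinesins between -0.64 and 1.25.

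Among the spindle assembly motors, Kif11 and Kif15 each reached a value of 10 in a single passage 2 cell. Kif11, the bipolar motor that slides spindle microtubules apart to separate the poles (chr19:37376403-37421859, plus strand), ranged from 0 to 114 in passage 2 cells with a median of 0, against 0 to 678 in passage 1 cells with a median of 5.02. It averaged 2.99 ± 16.9 at passage 2 and 97 ± 176 at passage 1 (SD over 45 and 22 cells), a log2 ratio of -4.62. It reached 10 in 1 of 45 passage 2 cells and in 10 of 22 passage 1 cells, and 84.6% of its passage 2 sum came from passage 2 cell 9, without which the log2 ratio was -6.06. Kif15, which helps Kif11 keep the poles apart (chr9:122951046-123018733, plus strand), ranged from 0 to 36.1 at passage 2 with a median of 0, against 0 to 266 at passage 1 with a median of 20.4. Its mean was 1.38 ± 5.39 at passage 2 and 71.7 ± 89.8 at passage 1, with a log2 ratio of -4.93. A value of 10 was reached in 1 passage 2 cell and in 13 passage 1 cells, so the passages overlapped at low values and at that 1 cell. Kifc1, the minus-end motor that bundles microtubules at the poles, did not pass the filter. It had 0 reads at passage 2 and 28 reads at passage 1, 90.2% of the normalized sum from 1 cell. Set against a floor of 3 reads over the passage 2 cells, its summed reads were 14.6-fold lower at passage 2. Reads were clumped in cells, so this fold is a description and not a lower bound. It rests mainly on the 1 cell, passage 1 cell 13, and the log2 ratio of -0.97 was -0.13 without that cell. Kifc1 shares nearly identical sequence with Kifc5b, which had 0 reads at passage 2 and 2 reads at passage 1, so its counts are uncertain.

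The kinesins that align and segregate chromosomes were lower at passage 2 by log2 ratios of -3.73 to -2.20. Kif4, a chromokinesin that binds chromosome arms (chrX:100625737-100727214, plus strand), ranged from 0 to 23.8 at passage 2 with a median of 0.694, against 0 to 267 at passage 1 with a median of 12.1. It averaged 2.43 ± 4.44 at passage 2 and 44.4 ± 66.5 at passage 1, a log2 ratio of -3.73, and reached 10 in 3 of 45 passage 2 cells and 12 of 22 passage 1 cells. Low traces of Kif4 were widespread, with a read in 23 passage 2 cells and 20 passage 1 cells. Exons of Kif4 overlap those of Pdzd11 over 832 bases, 15.1% of its exon bases. Pdzd11 also reached 10 in 3 of the 3 passage 2 cells with Kif4 at 10 and in 11 of the 12 such passage 1 cells, against 25 of all 45 passage 2 cells and 20 of all 22 passage 1 cells. The Spearman correlation of Kif4 with Pdzd11 was 0.70 over the passage 2 cells and 0.13 over the passage 1 cells. Both genes share the depth of each cell, and the part of the overlap in the Kif4 values was not tested.

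Kif22, the chromokinesin that pushes chromosome arms towards the metaphase plate (chr7:127027729-127042471, minus strand), rested on 1 cell at passage 2. Its value there ranged from 0 to 198 with a median of 0, against 0 to 215 at passage 1 with a median of 26.5. Means were 4.62 ± 29.4 at passage 2 and 52.7 ± 64.8 at passage 1, with a log2 ratio of -3.26. Passage 2 cell 9 held 95% of the passage 2 sum, and without it the ratio was -5.44. Kif18a, which damps chromosome movement at the plate (chr2:109280738-109341747, plus strand), ranged from 0 to 201 at passage 2 with a median of 0.892, against 0 to 234 at passage 1 with a median of 0.992. Its passage medians nearly coincided and the difference lay in the upper values. It averaged 6.78 ± 30.3 at passage 2 and 41.3 ± 70.4 at passage 1, a log2 ratio of -2.44 that was -3.65 without passage 2 cell 20. Values of 10 were found in 4 passage 2 cells and 9 passage 1 cells.

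Kif2c, which takes microtubules apart at the centromere and frees wrongly attached chromosomes (chr4:117159639-117182639, minus strand), ranged from 0 to 210 at passage 2 with a median of 0, against 0 to 368 at passage 1 with a median of 0.413. It averaged 9.92 ± 37.2 at passage 2 and 49.1 ± 93.2 at passage 1, a log2 ratio of -2.20 that was -2.98 without passage 2 cell 9. A value of 10 was seen in 4 of 45 passage 2 cells and 8 of 22 passage 1 cells, so most cells of either passage were below that value. Kif18b, which acts on astral microtubules, did not pass the filter. It had 0 reads at passage 2 and 87 reads in 5 cells at passage 1, with 57.5% of its passage 1 sum in passage 1 cell 18. Against the floor of 3 reads over the passage it was 45.4-fold lower at passage 2, likewise a description and not a lower bound. Its log2 ratio of -1.85 was -1.11 without that cell.

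Among the kinesins of the central spindle and cytokinesis, Kif20b had the lowest log2 ratio of the 8682 genes that passed and Kif20a the least negative of the 10 mitotic kinesins that passed. Kif20b, a motor of late mitosis needed to complete cell division (chr19:34922361-34975745, plus strand), ranged from 0 to 27.6 at passage 2 with a median of 0, against 0 to 693 at passage 1 with a median of 153. It averaged 0.734 ± 4.12 at passage 2 and 199 ± 218 at passage 1, a log2 ratio of -6.85. Kif20b reached 10 in 1 of 45 passage 2 cells, a share of 2.22% with an exact Clopper-Pearson 95% interval of 0.0562% to 11.8%. At passage 1 it did so in 15 of 22 cells, a share of 68.2% with an interval of 45.1% to 86.1%. These intervals cover the counting of cells only. Summed over cells, 37 reads of Kif20b were counted at passage 2 and 6202 at passage 1. Passage 2 cell 9 held 83.6% of the passage 2 sum, and without it the log2 ratio was -7.48.

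Kif20a, which brings the chromosomal passenger complex to the central spindle (chr18:34624613-34633277, plus strand), overlapped between the passages. It ranged from 0 to 582 at passage 2 with a median of 0, against 0 to 656 at passage 1 with a median of 27. It averaged 33 ± 100 at passage 2 and 109 ± 172 at passage 1, a log2 ratio of -1.70 that was -2.36 without passage 2 cell 9. A value of 10 was reached in 8 of 45 passage 2 cells and 14 of 22 passage 1 cells. Of those cells, 1 of 8 at passage 2 and 11 of 14 at passage 1 also had Kif20b at 10. Kif20b reached 10 without Kif20a in 0 passage 2 cells and in 4 passage 1 cells. Exons of Kif20a overlap those of Cdc23, a subunit of the anaphase-promoting complex on the opposite strand, over 1271 bases, 29.3% of the Kif20a exon bases. Whether reads were counted by strand is not given in the sources used here, and without strand, reads of the 2 genes cannot be told apart in the overlap. Cdc23 reached 10 in 8 of the 8 passage 2 cells and 13 of the 14 passage 1 cells with Kif20a at 10, against 14 of all 45 passage 2 cells and 17 of all 22 passage 1 cells. The Spearman correlation of Kif20a with Cdc23 was 0.62 over 45 passage 2 cells and 0.75 over 22 passage 1 cells, where both genes share the depth of each cell. The part of the overlap in the Kif20a values was not tested.

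**Figure D2:**
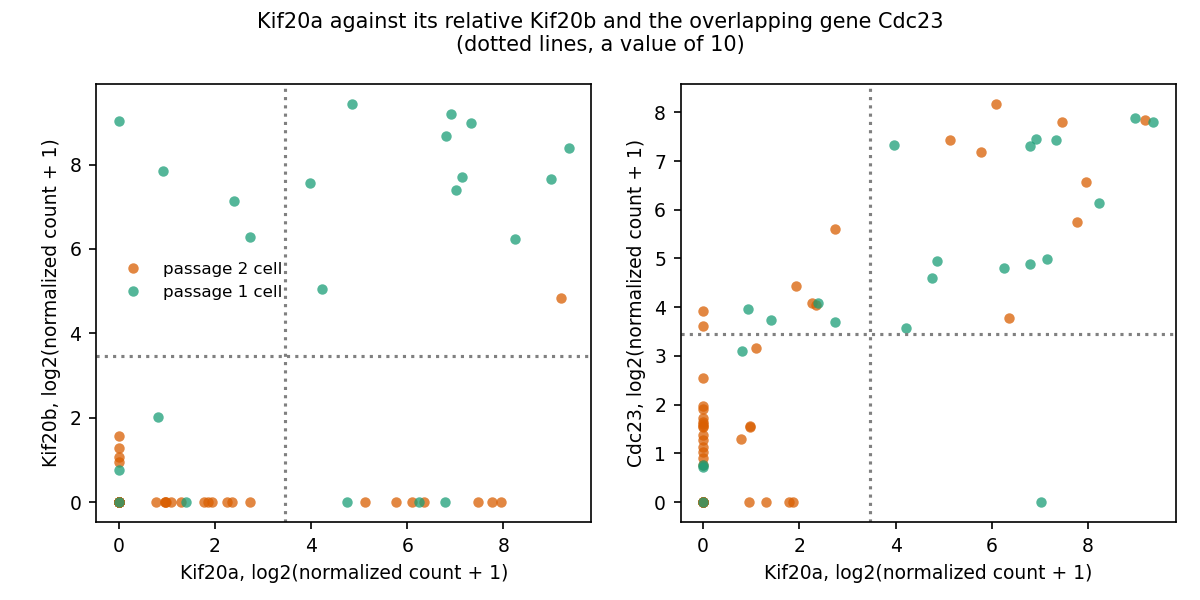
Kif20a in each cell (x axes, log2 of the normalized count plus 1) against Kif20b (left, y axis) and against Cdc23 (right, y axis) on the same scale, with dotted lines at a value of 10. On the left, 1 passage 2 cell and 11 passage 1 cells lie above both lines, while on the right 8 passage 2 cells and 13 passage 1 cells do.

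Kif23, the motor of the centralspindlin complex that bundles midzone microtubules (chr9:61915905-61946774, minus strand), had its highest value of all in a passage 2 cell. It ranged from 0 to 850 at passage 2 with a median of 0, against 0 to 659 at passage 1 with a median of 1.16. The mean was 23.6 ± 129 at passage 2 and 102 ± 170 at passage 1, with a log2 ratio of -2.07. Passage 2 cell 14 held 80.1% of the passage 2 sum, and without it the ratio was -4.15. Kif14, which recruits citron kinase to the midbody (chr1:136466343-136531511, plus strand), was found in few cells of either passage. Its range was 0 to 136 at passage 2, against 0 to 274 at passage 1, both with a median of 0, and averaged 5.22 ± 24.5 at passage 2 and 28.3 ± 68.3 at passage 1. Its log2 ratio of -2.23 was -3.17 without passage 2 cell 9 and -1.50 without passage 1 cell 12. Kif14 was at 10 in 2 passage 2 cells and 4 passage 1 cells.

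**Figure D3:**
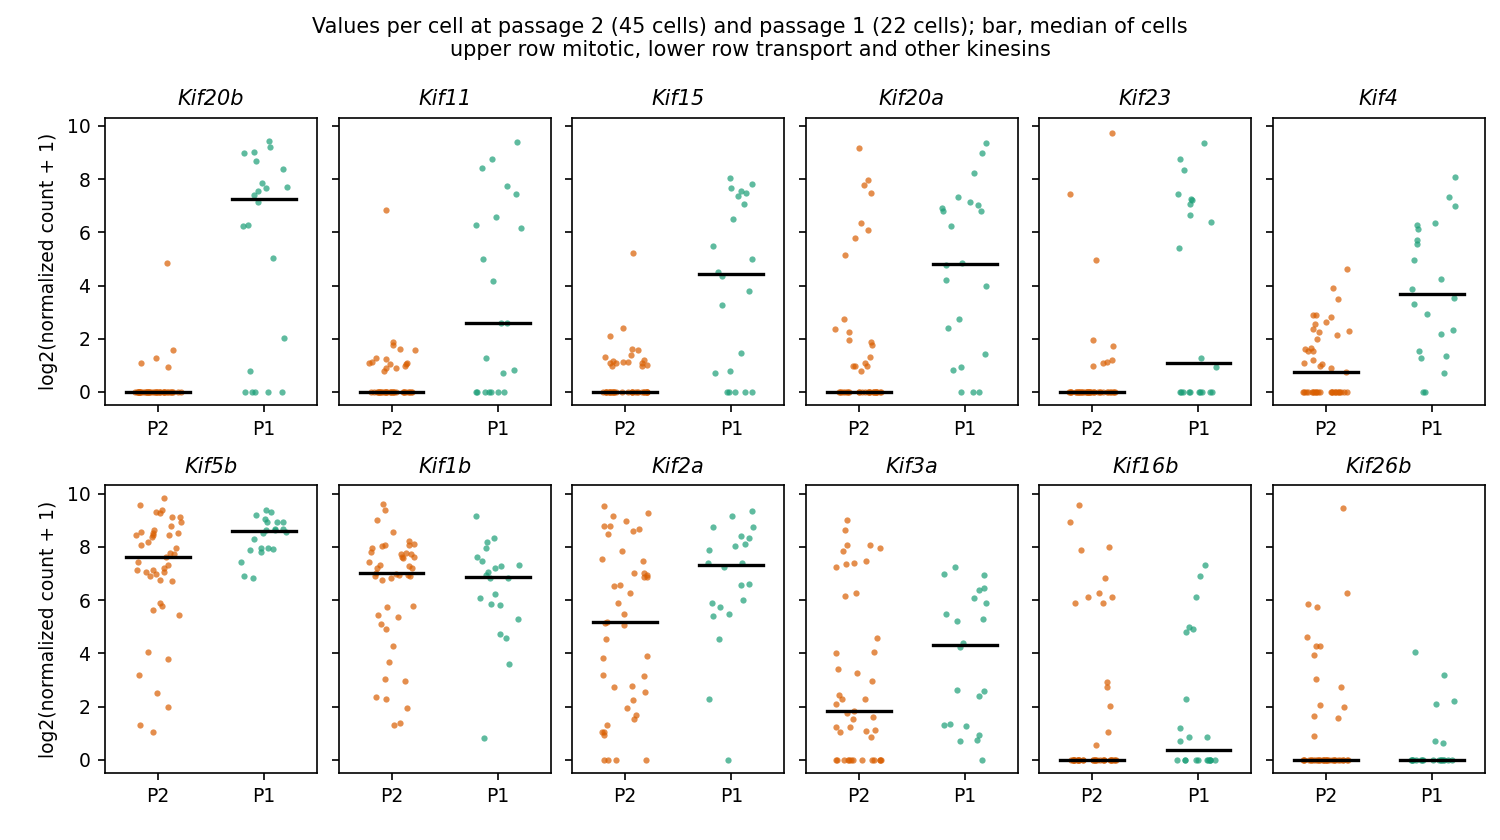
Value of 12 kinesins in each cell (y axes, log2 of the normalized count plus 1) at passage 2 (P2, 45 cells) and passage 1 (P1, 22 cells), with bars at the median over cells. Mitotic kinesins fill the upper row, where passage 2 medians are at or near 0, and Kif5b and Kif1b in the lower row are spread over most cells of both passages.

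The lower means at passage 2 went with fewer cells holding several mitotic kinesins at once. At least 3 of the 12 reached 10 in 2 of 45 passage 2 cells, a share of 4.44% with an exact 95% interval of 0.543% to 15.1%. At passage 1 it was 14 of 22 cells, a share of 63.6% with an interval of 40.7% to 82.8%. At least 6 did so in 1 passage 2 cell and in 11 passage 1 cells. No mitotic kinesin reached 10 in 30 passage 2 cells and 2 passage 1 cells. The median cell held 0 at passage 2 and 5.5 at passage 1, and the cell with the most held 8 at passage 2 and 11 at passage 1. In passage 2, the pair of cells that reached 3 differed in which motors they held. Cell 9 held 8, led by Kif20a at 582, Kif2c at 210, Kif22 at 198, Kif14 at 136 and Kif11 at 114. Cell 14 held 3, namely Kif23 at 850, Kif20a at 176 and Kif2c at 88.0. The highest 3 cells held 67.8% of the summed mitotic kinesin value at passage 2 and 41.6% at passage 1.

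The count also followed the proliferation markers Mki67 and Top2a. At least 1 of these markers reached 10 in 10 passage 2 cells and 16 passage 1 cells. Of those, 2 of 10 at passage 2 and 13 of 16 at passage 1 held at least 3 mitotic kinesins. Without either marker, 3 mitotic kinesins were reached in 0 of 35 passage 2 cells and 1 of 6 passage 1 cells. Leaving out the cells with either marker at 10 brought the median log2 ratio of the mitotic kinesins to -0.0087 over the 35 passage 2 and 6 passage 1 cells left. Among those cells Kif20b, at -5.71, Kif22, at -3.31, Kif20a, at -3.23, and Kif11, at -1.44, were still lower at passage 2. Of the passage 1 cells left, cell 17 alone had Kif22 (58.9) and Kif11 (16.9) at 10. Kif20b reached 10 in cells 5 and 17 of them, and Kif20a in cells 3, 5, 11 and 17. Kif14 stood at -0.0378, and the log2 ratios of Kif18a, Kif15, Kif4, Kif2c and Kif23 lay above 0, from 0.0203 to 1.11. Of the cells with endothelial markers, 0 of 2 at passage 2 and 3 of 5 at passage 1 held 3 mitotic kinesins. Without the endothelial marker cells the shares were 4.65% at passage 2 and 64.7% at passage 1, and the median log2 ratio was -2.99.

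**Figure D4:**
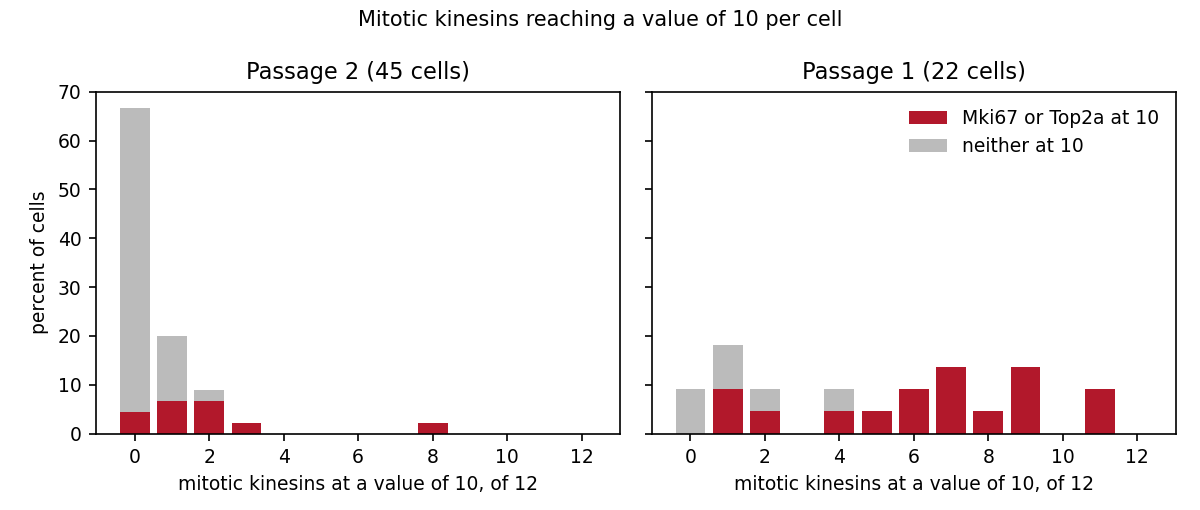
Percent of cells (y axes) by the number of the 12 mitotic kinesins at a value of 10 or more (x axes), at passage 2 (left) and passage 1 (right), coloured by whether Mki67 or Top2a was at 10. At passage 2, 30 of 45 cells stand at 0, and at passage 1 11 of 22 stand at 6 or above.

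Mitotic kinesins were found together in the same passage 1 cells. Over the 22 passage 1 cells the Spearman correlation of the 45 pairs of mitotic kinesins had a median of 0.55, from 0.21 to 0.87, with 45 above 0, while over the 45 passage 2 cells it had a median of 0.13, from -0.16 to 0.41, with 37 above 0. Kif14 with Kif11 was the closest pair at passage 1, at 0.87. The 110 pairs of a mitotic with a transport kinesin had medians of -0.01 at passage 2 and 0.02 at passage 1, and the 55 transport pairs had medians of -0.02 at passage 2 and -0.01 at passage 1. Mki67 correlated with the 10 mitotic kinesins at a median of 0.28 at passage 2 and 0.62 at passage 1. The genes of a pair share the depth of each cell, the cells of a passage share a library set, and these correlations are descriptions. Of the passage 1 cells with a single mitotic kinesin at 10, cell 21 had it at the highest value, Kif20b at 523, and that cell had reads in 4017 genes, the fewest of its passage.

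**Figure D5:**
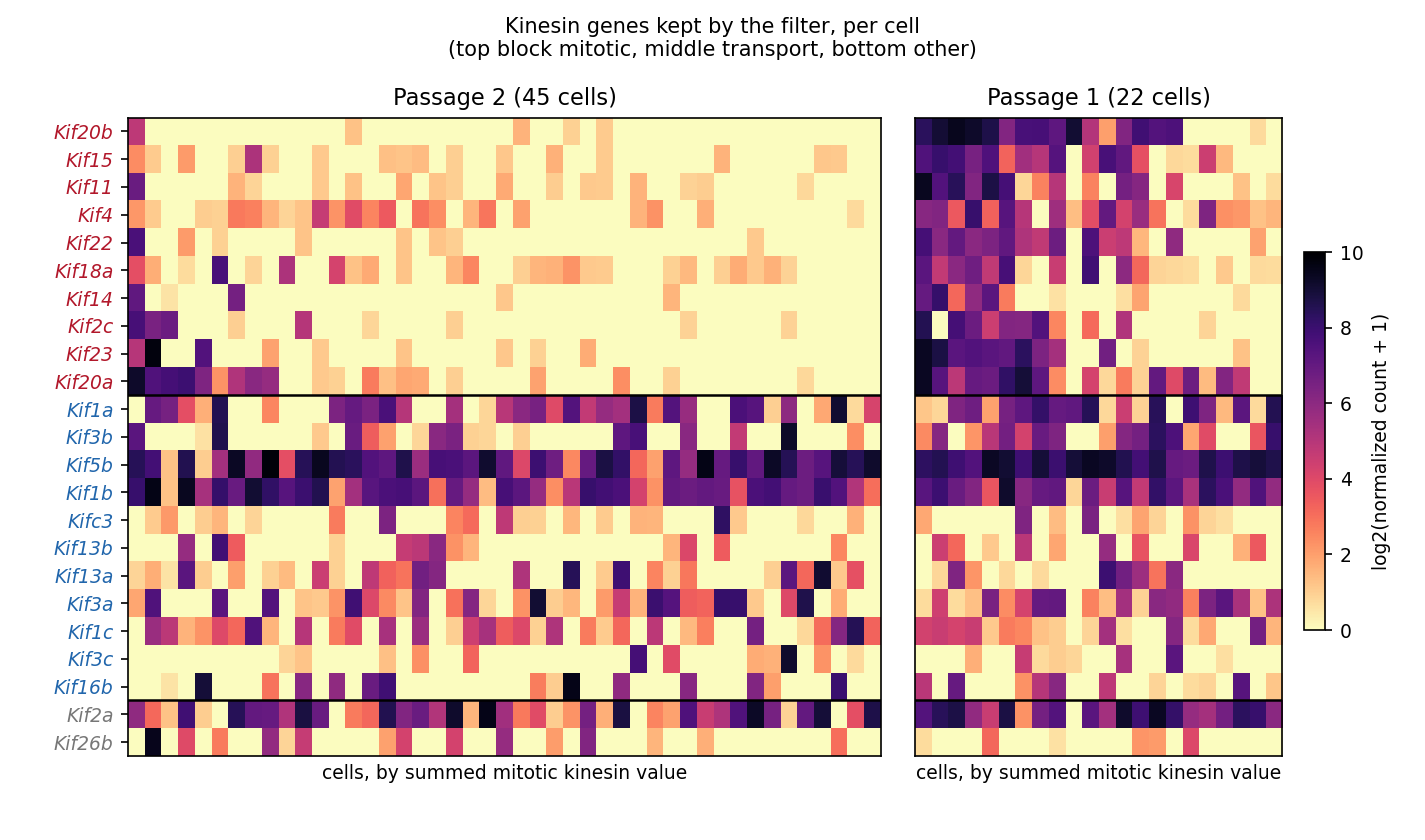
Log2 of the normalized count plus 1 (colour) for the 23 kinesins that passed the filter (rows) in each cell (columns) at passage 2 (left, 45 cells) and passage 1 (right, 22 cells), with cells ordered by their summed mitotic kinesin value. The mitotic block is dark in the left columns of passage 1 and in few columns of passage 2, while Kif5b and Kif1b are dark across most columns of both.

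Transport kinesins were present in nearly every cell, led by kinesin-1. Kif5b, the heavy chain of conventional kinesin made in most cell types (chr18:6201002-6242174, minus strand), ranged from 1.07 to 904 at passage 2 with a median of 199, against 113 to 663 at passage 1 with a median of 391. It averaged 260 ± 227 at passage 2 and 372 ± 161 at passage 1, a log2 ratio of -0.52, and reached 10 in 40 of 45 passage 2 cells and 22 of 22 passage 1 cells. Low values of Kif5b thus occurred among passage 2 cells and not among passage 1 cells. Its neuronal relatives Kif5a and Kif5c were absent or nearly so, with 0 reads of Kif5a in either passage and 36 reads of Kif5c at passage 2 against 53 at passage 1. Kif5c did not pass the filter, and its log2 ratio of -0.59 was -1.27 without passage 2 cell 8 and 0.47 without passage 1 cell 15.

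Within kinesin-2, Kif3a and Kif3b, the paired motors that carry cargo into the cilium, lay on opposite sides by their means over all cells. Kif3a (chr11:53567379-53601967, plus strand) ranged from 0 to 522 at passage 2 with a median of 2.59, against 0 to 152 at passage 1 with a median of 19. Its mean was 63.5 ± 120 at passage 2 and 39.7 ± 47.4 at passage 1, a log2 ratio of 0.67, so mean and median ran opposite ways, and with log2 values averaged over cells the ratio was -0.82. Kif3a was at 10 in 15 of 45 passage 2 cells and 12 of 22 passage 1 cells. Kif3b (chr2:153291413-153333390, plus strand) ranged from 0 to 604 at passage 2 with a median of 0, against 0 to 325 at passage 1 with a median of 16.3, and averaged 41.5 ± 112 at passage 2 and 63.4 ± 90.7 at passage 1. Its log2 ratio was -0.60, and it was 0.25 without the 25% of cells that had the fewest genes, the same side as Kif3a. Kif3c, a relative that pairs with Kif3a mainly in neurons, rested on 1 cell in each passage. It averaged 18.5 ± 90.9 at passage 2 and 10.1 ± 33.3 at passage 1, and its log2 ratio of 0.81 was -0.70 without passage 2 cell 33 and 2.18 without passage 1 cell 17. It was -0.21 with averaged log2 values. Exons of Kif3c overlap 1110002L01Rik, on the opposite strand, over 35.3% of its exon bases. The Spearman correlation of Kif3c with 1110002L01Rik was 0.42 over the passage 2 cells and 0.5 over the passage 1 cells. The overlapping gene had its highest passage 1 value, 183, in the same passage 1 cell 17, and the part of the overlap was not tested. Kif17, a kinesin-2 motor of cilia and dendrites, did not pass the filter and had a read in 3 cells of each passage. Its log2 ratio of 1.29 was 0.68 without passage 2 cell 35 and 2.27 without passage 1 cell 1.

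Of the 6 kinesin-3 members, which carry vesicles and endosomes, 5 had a higher mean at passage 2, where 45.3% of all genes that passed did. With log2 values averaged over cells, Kif1b, at -0.06, Kif13b, at -0.47, and Kif16b were lower at passage 2. Kif1b, a carrier of mitochondria and vesicles (chr4:149176319-149307693, minus strand), ranged from 1.44 to 776 at passage 2 with a median of 129, against 0.781 to 573 at passage 1 with a median of 117. It averaged 166 ± 166 at passage 2 and 141 ± 131 at passage 1, a log2 ratio of 0.23, and every cell of both passages had a read. Kif1a, best known as the carrier of synaptic vesicle precursors in neurons, was the exception, with 72.7 ± 117 at passage 2 and 114 ± 126 at passage 1 and a log2 ratio of -0.64. Its median was 25.5 at passage 2 and 86.3 at passage 1. Kif16b, a motor of early endosomes, was the transport kinesin past 2-fold among those that passed the filter. It ranged from 0 to 753 at passage 2 with a median of 0, against 0 to 157 at passage 1 with a median of 0.325, and averaged 48.8 ± 140 at passage 2 and 20.03 ± 42.3 at passage 1, a log2 ratio of 1.25. A value of 10 was reached in 10 of 45 passage 2 cells and 6 of 22 passage 1 cells. The higher mean therefore came from high values in few cells, and the log2 ratio turned to -0.0676 when log2 values were averaged over cells and to -0.55 without the 25% of cells with the fewest genes.

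The remaining kinesin-3 and C-terminal motors had low medians in both passages. Kif13a, a carrier of endosomal cargo, averaged 38.9 ± 104 at passage 2 and 25.2 ± 58.3 at passage 1, with a log2 ratio of 0.61 that was 1.36 without passage 1 cell 13. Kif13b averaged 10.02 ± 36.1 at passage 2 and 7.05 ± 13 at passage 1, with a log2 ratio of 0.45 that was -0.42 without passage 2 cell 20. Kif1c averaged 25.5 ± 60.3 at passage 2 and 14.2 ± 25.3 at passage 1, a log2 ratio of 0.80 that was 0.03 without the cells with Mki67 or Top2a at 10 and 1.499 without the endothelial marker cells. Kif1c reached 10 in 16 passage 2 cells and 7 passage 1 cells, so it was the more widely found of these. Kifc3, a minus-end motor, averaged 10.1 ± 46.9 at passage 2 and 8.19 ± 24.4 at passage 1, and its log2 ratio of 0.27 was -1.07 without passage 2 cell 45 and 1.05 without passage 1 cell 2. Kifc2 did not pass the filter, with 74 reads at passage 2, 97% of its normalized sum in 1 cell, and 0 reads at passage 1. Its log2 ratio of 1.35 was 0.07 without passage 2 cell 29. Over all transport kinesins with any read, 10 of 14 were higher at passage 2, against 50.3% of 20000 genes, with 3 at least 2-fold higher, against 12.6%.

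Per cell, the transport kinesins were more even than the mitotic ones. Their summed value ranged from 127 to 1891 at passage 2 with a median of 726, against 406 to 1438 at passage 1 with a median of 792. At least 3 transport kinesins reached 10 in 38 of 45 passage 2 cells and 21 of 22 passage 1 cells, with a median of 4 per cell at passage 2 and 5 at passage 1. As shares of all kinesin reads, mitotic kinesins made up 10.1% at passage 2 (4890 of 48242 reads) and 44.1% at passage 1 (25524 of 57896 reads). Transport kinesins made up 73.4% at passage 2 and 44.2% at passage 1. No interval is given for these shares, because reads were clumped in cells. The highest cell held 32.3% of the summed mitotic kinesin value at passage 2 and 19.7% at passage 1. All kinesins together took 0.117% of the reads at passage 2 and 0.219% at passage 1.

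Divided by exon length, Kif5b led in both passages, with a mean level of 32.6 per kilobase at passage 2 and 46.6 at passage 1. At passage 2 the next levels per kilobase were Kif2a at 21.7, Kif3a at 17.7 and Kif1b at 9.40, and the highest mitotic kinesin was Kif20a at 7.61. At passage 1 Kif2a at 31.9 was followed by the mitotic kinesins Kif20b at 28.6 and Kif20a at 25.2, then Kif11 at 13 and Kif23 at 12.9. The SD over cells was as large as the mean for most of these genes, so neighbours in this order did not differ beyond their spread. Kif20b lay at 0.105 per kilobase at passage 2.

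Of the 14 other kinesins, Kif2a and Kif26b passed the filter. Kif2a, a microtubule depolymerase of neurites and spindle poles (chr13:106958996-107022126, minus strand), ranged from 0 to 749 at passage 2 with a median of 34.9, against 0 to 651 at passage 1 with a median of 159. It averaged 139 ± 198 at passage 2 and 204 ± 187 at passage 1, a log2 ratio of -0.55, and reached 10 in 28 of 45 passage 2 cells and 20 of 22 passage 1 cells. Unlike its relative Kif2c it was at 10 in most cells. Its exons overlap those of Dimt1, on the opposite strand, over 1229 bases, 19.2% of its exon bases, and the Spearman correlation with Dimt1 was 0.14 over the passage 2 cells and 0.28 over the passage 1 cells. Kif26b, an atypical kinesin known for its role in kidney development in mice (chr1:178529125-178939200, plus strand), spanned 0 to 702 at passage 2, against 0 to 15.6 at passage 1, both with a median of 0. It averaged 21.9 ± 105 at passage 2 and 1.45 ± 3.71 at passage 1, a log2 ratio of 3.23, and 71.1% of the passage 2 sum lay in passage 2 cell 14, without which the ratio was 1.61. Without the cells with Mki67 or Top2a at 10, which include that cell, it was 0.93. The antisense gene Gm16564 overlaps 6.19% of the Kif26b exon bases and had its highest value, 433, in the same passage 2 cell 14. Reads of overlapping genes cannot be told apart without strand, and the part of this overlap was not tested. Values of 10 were found in 8 of 45 passage 2 cells and 1 of 22 passage 1 cells.

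The other 6 with a read, Kif7, Kif19a, Kif21a, Kif21b, Kif24 and Kif26a, did not pass and had log2 ratios from -1.96 to 2.08. Kif7, a ciliary regulator of Hedgehog signalling, had a ratio of 2.08 that was 0.29 without passage 2 cell 26. Kif21a, a regulator of microtubule growth, had a ratio of 1.46 that was 0.31 without passage 2 cell 30. Its relative Kif21b, at -1.96, had a read in 1 cell of each passage, and without passage 1 cell 5 its ratio was 0.0302. Kif24, a centriolar kinesin that restrains cilium formation, had traces in 24 passage 2 cells and 10 passage 1 cells and a ratio of -0.78 that was -0.18 without passage 1 cell 8. The direction turned for Kif24 by medians over cells, at 0.79, and without the cells with Mki67 or Top2a at 10, at 1.75.

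The partners of the mitotic kinesins were lower with them. Of 17 spindle partners, all of which passed the filter, 16 were lower at passage 2 and 15 at least 2-fold lower, where 54.7% of all genes that passed were lower and 19.4% at least 2-fold lower, and the median log2 ratio was -2.61. Aurkb, the kinase of the chromosomal passenger complex, averaged 1.94 ± 13 at passage 2 and 77.7 ± 166 at passage 1, a log2 ratio of -4.74. Incenp, its scaffold, had a log2 ratio of -3.94. Cenpe, a kinetochore kinesin whose symbol lies outside the naming rule, averaged 26 ± 106 at passage 2 and 163 ± 368 at passage 1, a log2 ratio of -2.61. The partners with the highest means were Ckap5, a microtubule polymerase, at 104 ± 194 at passage 2 and 250 ± 248 at passage 1, and Prc1, which crosslinks midzone microtubules and recruits Kif4, at 28.4 ± 105 at passage 2 and 254 ± 389 at passage 1. Racgap1, which binds Kif23 in centralspindlin, departed from its partner. It reached 10 in 43 of 45 passage 2 cells and 18 of 22 passage 1 cells, with a log2 ratio of -0.75, whereas Kif23 reached 10 in 3 passage 2 cells and 10 passage 1 cells. Numa1, the spindle pole protein that is nuclear between divisions, was the partner that was not lower, with a log2 ratio of 0.15.

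Light chains and cargo adaptors of the transport kinesins were near level between the passages by their median log2 ratio. Of 11 that passed, 6 were higher at passage 2, 0 at least 2-fold higher and 2 at least 2-fold lower, where 45.3% of all genes that passed were higher, 14.4% at least 2-fold higher and 19.4% at least 2-fold lower. Their median log2 ratio was 0.15. Arl8b, the small GTPase that links lysosomes to kinesins, averaged 547 ± 552 at passage 2 and 655 ± 372 at passage 1 and had the highest mean, followed by Fez2 at 56 ± 115 at passage 2 and 46 ± 63.7 at passage 1. Mapk8ip3, a scaffold that binds kinesin-1, had a log2 ratio of 0.80 and Plekhm2, which joins Arl8b to kinesin-1, 0.67. Rhot1 and Trak1, which together attach mitochondria to kinesin-1, had the lowest log2 ratios, -1.56 for Rhot1 and -1.002 for Trak1.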

How the data were processed

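Values were read from 1 deposited table of 45 passage 2 and 22 passage 1 cells. The submitters' processing notes name the aligner BWA, SAMtools, the counter HTSeq, DESeq and the GRCm38 build, without versions. The signal values the authors deposited are gene counts divided by 1 size factor per cell. Strand setting and multi-mapping reads are not given in the sources used here. Each column divided by its smallest step gave whole reads (100% of 509576 values above 0 within 0.001). No count test was run, because the cells of a passage are 1 sample. SDs are over cells.

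Symbols, exon lengths and overlaps came from GENCODE M21 (GRCm38) and matched 37607 of 39179 rows, and promoter windows came from RefSeq. Ratios were computed for kinesins in the same way as for all genes, of which 8682 passed the filter (97.8% of reads). Every member that passed is named with values, and of each partner list the 2 members with the highest mean, the 2 highest and the 2 lowest ratios. A value of 10 marks a gene as reached in a cell. Intervals are exact Clopper-Pearson at 95% and cover counting only. Members and lists were chosen with earlier results of these data known. No doublet caller was run. Alternatives were pseudocounts, filters, scalings (CPM and TMM from edgeR 4.0.16), summaries over cells, thinning to 500000 reads, and cells left out. The ratios were tested on simulated data. Scripts ran in Python 3.11.15 with pandas 2.3.3, numpy 2.4.6, matplotlib 3.10.9 and scipy 1.17.1.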

Additional observations from a re-analysis of the deposited data

How the results depend on the processing

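No paired analysis was possible because the cells of the passages carry no shared replicate numbers and each passage is 1 sample. The median log2 ratio of the mitotic kinesins moved from its reported value to -1.92 with a pseudocount of 10 and to -0.0087 without cells with Mki67 or Top2a at 10. Over the other settings, which included CPM, TMM, medians over cells, thinning and no filter, it stayed between -3.26 and -2.34, and with each cell left out in turn between -3.47 and -2.64. That of the transport kinesins was -0.21 when log2 values were averaged over cells, and 0.30 to 0.63 with each cell left out. Averaging log2 values also moved the median of all genes that passed to -0.62, and medians over cells to -0.60. With any read in place of a value of 10, at least 3 mitotic kinesins were found in 60.0% of passage 2 cells and 95.5% of passage 1 cells. Directions turned without cells with Mki67 or Top2a at 10 for Kif18a (1.11), Kif15 (0.99), Kif4 (0.16), Kif2c (0.14), Kif23 (0.0203), Kif21a (-0.14), Kif24 (1.75), Kif5c (0.0479), Kif3c (-0.0947) and Kif13b (-0.15). They turned by medians over cells for Kif3a (-2.48), Kif16b (-0.41) and Kif24 (0.79), and by averaged log2 values for Kif3a (-0.82), Kif13b (-0.47), Kif3c (-0.21), Kif16b (-0.0676), Kif1b (-0.06) and Kifc3 (-0.0388). When the 25% of cells with fewest genes were left out they turned for Kif16b (-0.55), Kif3b (0.25) and Kif21b (0.0398). With 1 cell left out, 2250 of 2278 gene values were within 1.5-fold of the reported ones, and Kif21b, at -2.01 to -1.96 with any other cell left out, turned to 0.0302 without passage 1 cell 5. With 1 cell left out, directions also turned for Kif3c (-0.70), Kif13b (-0.42), Kifc3 (-1.07) and Kif5c (0.47). The causes were not tested. With 1 sample a passage, neither animals nor cultures could be compared.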

Other observations

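Subunits of dynein and dynactin, the motor that moves opposite to most kinesins, were near level between the passages. Of 18 that passed the filter, 11 were higher at passage 2, 1 at least 2-fold higher and 1 at least 2-fold lower, with a median log2 ratio of 0.05. Over all genes that passed, 45.3% were higher, 14.4% at least 2-fold higher and 19.4% at least 2-fold lower. The light chains Dynll1, at 422 ± 225 at passage 2 and 445 ± 180 at passage 1, and Dynlrb1, at 247 ± 115 at passage 2 and 239 ± 100 at passage 1, had the highest means and reached 10 in every cell of both passages. Dctn1, the large dynactin subunit, had a log2 ratio of 1.08 and Dync1li1, a light intermediate chain, 0.91. Nde1, a dynein regulator with a role in mitosis, had the lowest ratio at -1.72, followed by Actr1a, the dynactin filament subunit, at -0.96.

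Tubulins, the track the motors run on, were lower at passage 2 in 9 of the 10 genes that passed, 5 of them at least 2-fold, with a median log2 ratio of -0.94. Over all genes that passed, 54.7% were lower and 19.4% at least 2-fold lower. Tubb5 had the highest mean, at 1306 ± 786 at passage 2 and 1473 ± 655 at passage 1, followed by Tubb6 at 260 ± 498 at passage 2 and 661 ± 470 at passage 1. The lowest ratios were those of Tubg1, the gamma-tubulin that seeds microtubules at centrosomes, at -1.95, and of Tuba1b at -1.73. Of the 10 that passed, Tubb3 alone had a higher mean at passage 2, at 0.83, and Tubb5 came next at -0.17. Of the 12 tubulins with any read, 3 were higher at passage 2, where 50.3% of genes with a read were, and 9 lower. Their log2 ratios reached 3.99, in a gene that did not pass, and their median was -0.65. Tubulin genes share near-identical sequence, so their values are uncertain.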
